A study of Mus musculus with 6 samples.

Results

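The fibroblast growth factor (FGF) pathway was examined in bulk RNA-Seq counts of the embryonic mouse cardiac outflow tract (OFT) through 10 genes chosen by name: the ligands *Fgf8* and *Fgf10*, the receptors *Fgfr1*, *Fgfr2* and *Fgfr3*, and the feedback and response genes *Spry1*, *Spry2*, *Dusp6*, *Etv4* and *Etv5*. Their Ensembl identifiers matched 10 of the 28777 genes listed in the counts table, and all 10 passed the filter on low counts that left 28157 genes for testing. The OFT begins as the common vessel that leaves the embryonic heart and is divided into the aorta and the pulmonary artery. At the stage used here, per the study, the OFT already had its great vessels in position. It was dissected at E13.5 (embryonic day) from embryos labelled wildtype, which carry neither altered allele, and from embryos labelled mutant, which were *Notch1*+/-; *Nos3*-/- and so carried 1 altered copy of the receptor gene *Notch1* and no intact copy of the endothelial nitric oxide synthase gene *Nos3*. Each of the 6 libraries, 3 a label, was made from 3 pooled OFTs, and the study describes the colonies as kept on a C57/BL6J background. Both alleles are present in every cell of the mutant embryos and no library carries only 1 of them, so their effects cannot be told apart.

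FGF ligands are secreted proteins that bind receptor tyrosine kinases at the cell surface with heparan sulfate as a cofactor, and the activated receptors signal through the adaptor FRS2, RAS and the ERK kinases. ERK activity switches on the ETS transcription factors *Etv4* and *Etv5* together with inhibitors of the pathway, the Sprouty proteins and the ERK phosphatase *Dusp6*, so transcripts of these genes are commonly used as a readout of FGF signalling. In the mouse embryo, *Fgf8* and *Fgf10* mark the second heart field, the progenitor population in the pharyngeal mesoderm that lengthens the OFT, and *Fgf8* is required there for a normally aligned OFT.

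Of the library labels, wildtype replicate 1 and mutant replicates 1, 2 and 3 are unambiguous. The other 2 wildtype libraries are called here by their library names, SL203086 and SL203087, because 1 label numbers them in the opposite order to the other. Total counts were between 34729103 and 44387490 a library. Levels are given as CPM, the usual library-scaled read count, adjusted by the trimmed mean of M-values (TMM), in the order wildtype and then mutant. *Notch1*, at 74.3, 88.2 and 83.6 CPM in wildtype and 155, 161 and 139 CPM in the libraries labelled mutant, was called higher in the latter (0.89 ± 0.10 on the log2 scale, fitted difference and its standard error, adjusted p = 0.0313, edgeR), although these embryos lack 1 intact copy. Below, wildtype and mutant mean the libraries with these labels. The counts sum over the whole gene, so the altered part of either targeted gene could not be read separately. *Nos3* was at 31.8, 47.2 and 48.1 CPM in wildtype and 22.1, 22 and 20.4 CPM in mutant, without overlap (−0.98 ± 0.15). It was not called by edgeR (adjusted p = 0.128) but was called lower in mutant by DESeq2 (adjusted p = 9.14e-06).

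The bases upstream of 3 genes are shown because their transcripts took 3 different courses over the libraries: *Fgfr2* varied most between libraries of the 3 receptors, *Spry2* was nearly level, and *Dusp6* varied within both labels. Each is the 250 bases before the transcription start in RefSeq (build GRCm38.p6, the same assembly as mm10), 5′ to 3′ on the strand of the gene, and the capitals mark every GGAA or its reverse TTCC, the core of the site read by ETS factors such as *Etv4* and *Etv5*. RefSeq starts were matched for 7 of the 10 genes, *Fgf10*, *Fgfr2*, *Fgfr3*, *Spry1*, *Spry2*, *Dusp6* and *Etv5*.
Fgfr2, chr7:130266809-130267058, minus strand: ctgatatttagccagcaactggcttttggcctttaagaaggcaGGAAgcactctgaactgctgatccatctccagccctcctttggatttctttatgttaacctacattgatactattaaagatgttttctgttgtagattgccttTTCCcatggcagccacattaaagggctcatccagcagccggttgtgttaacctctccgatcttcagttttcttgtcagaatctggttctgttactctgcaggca
Spry2, chr14:105896820-105897069, minus strand: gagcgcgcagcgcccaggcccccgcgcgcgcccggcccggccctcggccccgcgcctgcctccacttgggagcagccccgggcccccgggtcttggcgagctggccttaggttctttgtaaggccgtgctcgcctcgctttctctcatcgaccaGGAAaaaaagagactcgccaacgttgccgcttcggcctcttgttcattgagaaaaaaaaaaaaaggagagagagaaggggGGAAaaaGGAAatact
Dusp6, chr10:99262981-99263230, plus strand: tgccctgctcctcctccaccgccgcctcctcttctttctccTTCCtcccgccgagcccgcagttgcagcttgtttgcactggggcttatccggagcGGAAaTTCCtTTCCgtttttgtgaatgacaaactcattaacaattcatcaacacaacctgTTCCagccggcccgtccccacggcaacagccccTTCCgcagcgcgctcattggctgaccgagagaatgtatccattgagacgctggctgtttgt
The *Dusp6* window held 6 such matches, the *Spry2* window 3 and the *Fgfr2* window 2. At least 1 match stood in 93.4% of all 32851 promoter windows of this length, with a median of 3 a window. The longer AGGAAG or its reverse CTTCCT, whose inner letters are a GGAA or TTCC match as well, occurred in the *Fgfr2* window and in the *Dusp6* window and in 29.5% of all windows. G and C made up 44% of the *Fgfr2* window, 62.4% of that of *Spry2* and 56.4% of that of *Dusp6*. These matches describe letters only.

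Compared between the labels, none of the 10 genes was called by edgeR's quasi-likelihood test at an adjusted p of at most 0.05, where 0.0213% of all genes tested were called. At an unadjusted p under 0.05 there were 5 of the 10, *Fgfr1*, *Fgfr2*, *Fgfr3*, *Etv4* and *Etv5*, all with the higher level in mutant, against 16.1% of all genes in either direction and 8.23% in that direction. DESeq2's Wald test called 1 of them, *Fgfr3* (2.66% of all genes, and 4.21% of the 17781 to which it gave an adjusted p), and limma-voom called 0 (0.0178% of all genes). Of the 10 genes, 7 had a fitted difference above 0 and 3 below, with a median log2 fold change of 0.17 beside 0.011 over all genes. *Etv4* alone had groups that did not overlap, which 19.6% of all genes showed, 10.7% with the higher level in mutant.

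**Figure D1:**
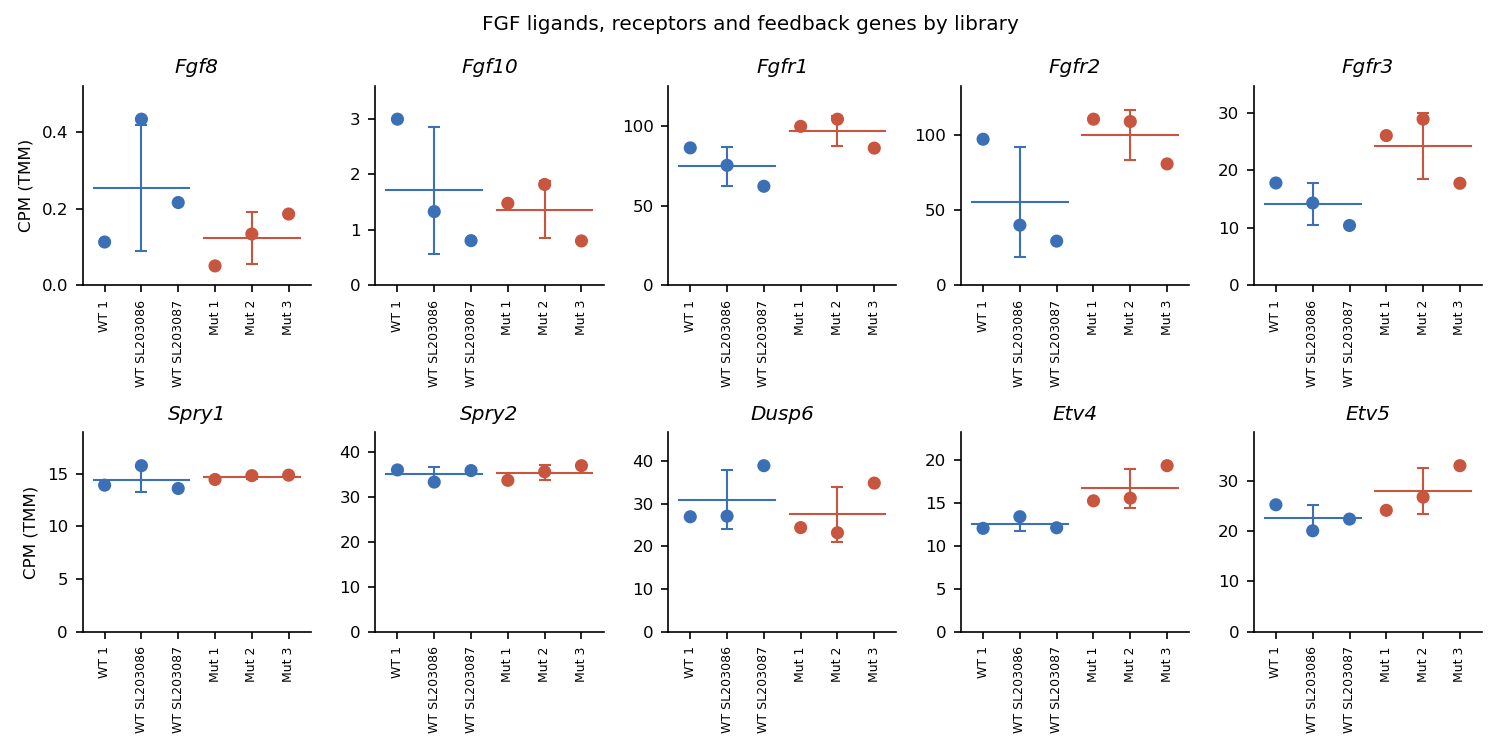
CPM (TMM-scaled, linear axes from 0) of each of the 10 genes in each library, wildtype in blue and mutant in red, with each group's mean as a line and its SD (n = 3) as a bar. *Fgfr2* of wildtype replicate 1, at 97.1 CPM, lies among the mutant libraries, while *Spry1* and *Spry2* are nearly level across all 6.

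The receptors through which the ligands act are described first. *Fgfr1* (ENSMUSG00000031565), a receptor used widely in mesenchyme, spans chr8:25513654-25575718. Its level was 86.4 CPM in wildtype replicate 1, 75.4 CPM in SL203086 and 62.2 CPM in SL203087, and 100, 105 and 86.3 CPM in mutant replicates 1, 2 and 3. The lowest mutant library thus stood just under the highest wildtype library, and the other 2 mutant libraries stood above all wildtype ones. The log2 fold change was 0.38 (standard error 0.13, 95% interval 0.089 to 0.66, adjusted p = 0.233, edgeR), and 0.22 after a correction for GC content and length.

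*Fgfr2* (ENSMUSG00000030849), whose splice forms serve epithelium and mesenchyme, is annotated to chr7:130162451-133123350, a span that an extended transcript stretches across many other genes. It was read at 97.1 CPM in wildtype replicate 1, 39.9 CPM in SL203086 and 29.2 CPM in SL203087, against 110, 109 and 80.6 CPM in the mutant replicates. The wildtype libraries therefore split, with 1 at the mutant level and the other 2 below every mutant library. The fitted difference was 0.85 on the log2 scale (standard error 0.35, 95% interval 0.08 to 1.62, adjusted p = 0.279, edgeR).

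*Fgfr3* (ENSMUSG00000054252), a receptor best known for restraining the growth of cartilage, lies on chr5:33721674-33737068, 9.34 Mb beyond the end of *Nos3* on the same chromosome. Its level was 17.8 CPM in wildtype replicate 1, 14.3 CPM in SL203086 and 10.4 CPM in SL203087, and 26.1, 28.9 and 17.7 CPM in the mutant replicates. Mutant replicate 3 fell just short of wildtype replicate 1, and the other 2 mutant libraries were the highest of the 6. The log2 fold change was 0.77 (standard error 0.21, 95% interval 0.30 to 1.24) with an adjusted p of 0.194 by edgeR and of 0.0222 by DESeq2.

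Leaving out wildtype replicate 1 changed the edgeR calls on the receptors. Without it edgeR called *Fgfr1* (log2 fold change 0.49, adjusted p = 0.0316), *Fgfr2* (1.53, adjusted p = 0.00682) and *Fgfr3* (0.97, adjusted p = 0.0288), so 3 of the 10 genes, all higher in mutant, where 9.45% of all genes tested were called and 4.15% were called higher. With wildtype replicate 1 kept and SL203086 and SL203087 left out instead, a fit that takes the lone wildtype library to vary like the others, the log2 fold change was 0.17 for *Fgfr1*, 0.047 for *Fgfr2* and 0.45 for *Fgfr3*, and none of the 10 was called.

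The receptors moved with the markers of mesenchyme, the loose connective cells that fill the OFT cushions. The list of 8 mesenchymal markers (*Postn*, *Col1a1*, *Col3a1*, *Sox9*, *Twist1*, *Prrx1*, *Vcan* and *Pdgfra*) had a fitted level above 0 in mutant for 8 of 8, none was called, its median log2 fold change was 0.60, and none was at 0 counts in any library. Its summed level was 8011 CPM in wildtype replicate 1, 5402 CPM in SL203086 and 4092 CPM in SL203087, and from 7430 to 9517 CPM in mutant, so here too wildtype replicate 1 stood inside the mutant range. The 12 myocardial markers ran the other way, with 12 of 12 fitted below 0, none called and none at 0 counts, a median of −0.51, and summed levels of 28091 to 41713 CPM in wildtype and 19849 to 27406 CPM in mutant. Vascular smooth muscle markers had fitted values above 0 in 6 of 8, none called and none at 0 counts, with a median of 0.44 and summed levels of 2802 to 3874 CPM in wildtype and 3092 to 5636 CPM in mutant. Most of that sum came from *Eln* and *Acta2*, which ran in opposite directions. *Eln* was at 2262, 1778 and 757 CPM in wildtype and 3146, 4151 and 1455 CPM in mutant (0.87). The 2 fitted below 0 were the contractile genes *Acta2* (−0.25) and *Cnn1* (−0.29). Markers of neural crest and glia had 5 of 6 above 0, none called and none at 0 counts, with a median of 0.50, although their summed level ran opposite, at 91.0 to 166 CPM in wildtype and 66.6 to 111 CPM in mutant. Much of that sum came from *Ednrb*, the 1 marker fitted below 0 (−0.95), at 53.5, 85.7 and 143 CPM in wildtype and 40.5, 25.8 and 79.3 CPM in mutant. The calls above are edgeR's on all 6 libraries (0.0213% of all genes). Without wildtype replicate 1, edgeR called 8 of the 8 mesenchymal markers higher and 8 of the 12 myocardial lower (9.45% of all genes). It also called 2 vascular smooth muscle markers and 1 neural crest and glia marker higher. With all 6 libraries DESeq2 called 1 mesenchymal, 6 myocardial, 1 vascular smooth muscle and 0 neural crest and glia markers (2.66% of all genes). In bulk tissue, fewer cells of a type and less RNA per cell cannot be told apart. When the mean log2 level of the mesenchymal list was added to the fit as a covariate, an alternative chosen after seeing the data, the log2 fold change was 0.078 for *Fgfr1*, −0.049 for *Fgfr2* and 0.25 for *Fgfr3*. With the myocardial list in its place the values were 0.11, 0.23 and 0.23. Both list means varied with the label, so neither fit separates tissue composition from the label. The part of tissue composition in the receptor differences was not tested.

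**Figure D2:**
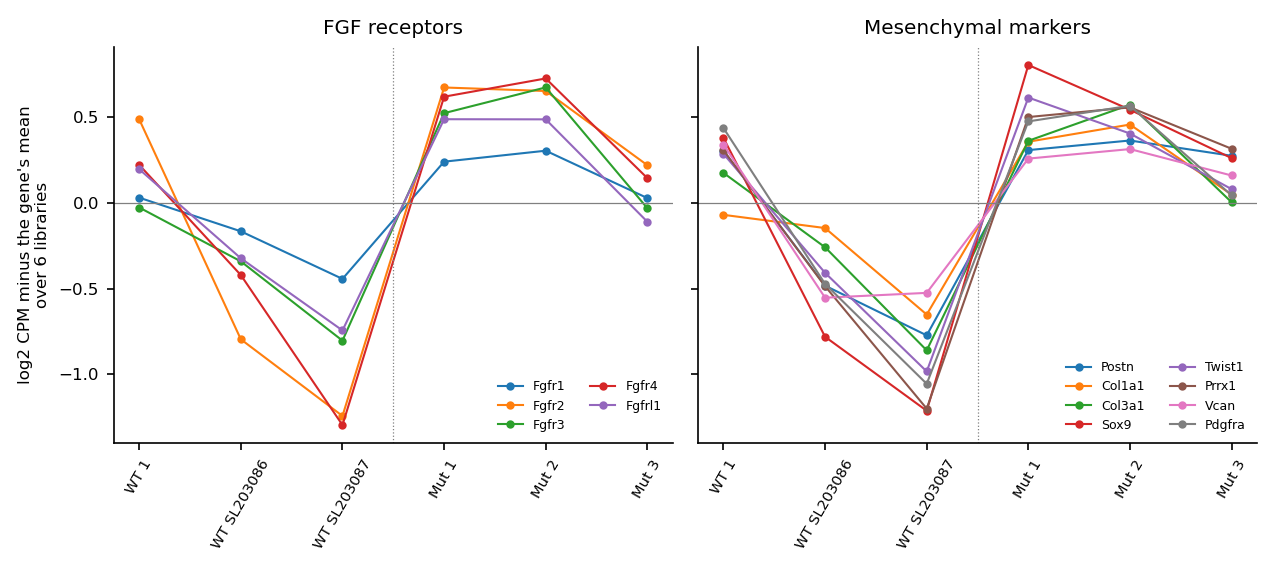
Log2 CPM minus the mean of that gene over the 6 libraries, for 5 FGF receptor genes (left) and the 8 mesenchymal markers (right); libraries are in label order and the lines only join the values of a gene. In both panels SL203087 is the lowest library of every gene but *Vcan*, and wildtype replicate 1 lies above SL203086 and SL203087 throughout.

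Among 16654 other genes that averaged 1 CPM or more, the 3 whose profile over the 6 libraries lay nearest to that of *Fgfr2* were *Sox9*, *Sox5* and *Shisa2*, with root mean square differences of 0.085, 0.10 and 0.12 in centred log2 CPM. *Sox9*, a transcription factor of cushion mesenchyme and cartilage, was read at 57.1, 25.6 and 18.9 CPM in wildtype and at 76.7, 64.0 and 52.6 CPM in mutant. *Sox9* was also 1 of the mesenchymal markers, and the 6 points share library and scaling. Within the 10 genes, the nearest to *Fgfr2* was *Fgfr3* (0.35), and that to *Fgfr3* was *Fgfr1* (0.25).

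Wildtype SL203086 and SL203087, the libraries with the lowest receptor levels, also held transcripts of liver marker genes. The 8 liver markers summed to 99.4 and 28.9 CPM in these libraries, to 2.79 CPM in wildtype replicate 1, and to between 4.0 and 7.42 CPM in mutant. *Fgb* and *Serpina1a* were at 0 in at least 1 library. Their 8 blood markers were high as well, at 7007 and 6024 CPM beside 3316 CPM in wildtype replicate 1 and 3658 to 3745 CPM in mutant. The part of either in the receptor values was not tested. Epithelial RNA was scarce in all libraries, with *Epcam* at no more than 0.555 CPM and the whole list of endoderm and epithelium markers between 26.8 and 41.4 CPM, most of it *Krt8* and *Krt18*.

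The other receptors of the family were read for context. *Fgfr4*, a receptor of skeletal muscle and liver, was low, at 2.29, 1.47 and 0.801 CPM in wildtype and 3.02, 3.26 and 2.17 CPM in mutant, and the fitted difference was 0.87 on the log2 scale (adjusted p = 0.264, edgeR, standard error 0.34). *Fgfrl1*, a receptor-like protein that binds FGF but has no kinase, was at 71.8, 50.1 and 37.4 CPM in wildtype and 87.9, 87.9 and 58.1 CPM in mutant, with a fitted difference of 0.55 (adjusted p = 0.273, standard error 0.22). Both showed the order seen for *Fgfr2*, with wildtype replicate 1 above the other wildtype libraries, and both were called without it (1.29 with adjusted p = 0.0391 and 0.83 with adjusted p = 0.0311).

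Summed over *Fgfr1* to *Fgfr4* and scaled by exon length, receptor transcripts amounted to 21.3 CPM per kb in wildtype replicate 1, 13.9 in SL203086 and 10.8 in SL203087, and to 25.3, 26.1 and 19.6 in the mutant replicates. *Fgfr2* made up 44.2%, 27.7% and 26.2% of that sum in wildtype and 42.2%, 40.4% and 39.8% in mutant. The share of *Fgfr1* ran opposite, at 41.1%, 54.9% and 58.3% in wildtype and 40.0%, 40.6% and 44.5% in mutant. *Fgfr3* kept a share of 13.2% ± 1.36 (SD, n = 3) in wildtype and 14.2% ± 1.45 in mutant. The 2 libraries with the lowest sums were those with the lowest share of *Fgfr2*, which is itself part of the sum. A lower level of *Fgfr2* alone lowers the sum and raises the shares of the other receptors, so the shares are not independent. The level of *Fgfr1* was also lowest in SL203086 and SL203087, at 75.4 and 62.2 CPM.

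The ligands had the fewest counts of the 10 genes. *Fgf8* (ENSMUSG00000025219, chr19:45736798-45742915) had 5, 18 and 7 counts in the wildtype libraries, in the order wildtype replicate 1, SL203086 and SL203087, and 2, 5 and 7 counts in the mutant replicates. That is 0.112, 0.434 and 0.216 CPM in wildtype and 0.050, 0.133 and 0.186 CPM in mutant. The groups overlapped and the highest library, SL203086, carried more counts than any other 2 together. The log2 fold change of −1.03 had a standard error of 0.76 and a 95% interval from −2.70 to 0.64 (adjusted p = 0.526, edgeR), so a difference of neither sign was established. Without SL203086 and SL203087 it was 0.12.

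*Fgf10* (ENSMUSG00000021732, chr13:118669791-118792115) was read at 2.99 CPM in wildtype replicate 1, 1.32 CPM in SL203086 and 0.801 CPM in SL203087, and at 1.47, 1.81 and 0.796 CPM in mutant, from 26 to 133 counts. Wildtype replicate 1 was the highest library by far and the rest overlapped. The fitted value, −0.34 (standard error 0.46, 95% interval −1.35 to 0.68, adjusted p = 0.76, edgeR), changed sign to 0.35 without wildtype replicate 1. It moved the other way in 3 further fits, to −1.41 with the mesenchymal covariate (adjusted p = 0.301), −1.36 with the myocardial covariate (adjusted p = 0.464) and −1.13 without SL203086 and SL203087 (adjusted p = 0.49, all edgeR), and was called in 0 of 19 alternatives. Of the markers of second heart field and pharyngeal tissue, the cells known for these ligands, 7 of 8 had a fitted difference above 0 and 0 were called. Their summed level was 175 to 197 CPM in wildtype and 184 to 192 CPM in mutant.

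The feedback inhibitors that block the RAS step showed the smallest differences. *Spry1* (ENSMUSG00000037211, chr3:37639947-37644598) was at 13.9, 15.8 and 13.6 CPM in wildtype and at 14.4, 14.8 and 14.9 CPM in mutant, the mutant values all inside the wildtype range. Its log2 fold change was 0.028 with a 95% interval from −0.22 to 0.28 (adjusted p = 0.932, edgeR). *Spry2* (ENSMUSG00000022114, chr14:105891947-105896819) was at 35.9, 33.2 and 35.8 CPM in wildtype and at 33.6, 35.5 and 36.9 CPM in mutant. Its interval, from −0.19 to 0.22 around 0.015, was the narrowest of the 10 (adjusted p = 0.957). The 6 libraries spanned only 0.21 log2 units for *Spry1* and 0.15 for *Spry2*, beside 1.92 for *Fgfr2* in the same libraries.

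*Dusp6* (ENSMUSG00000019960, chr10:99263231-99267489), the cytoplasmic phosphatase that removes the activating phosphates from ERK, split both groups. Its level was 26.9 CPM in wildtype replicate 1, 27.1 CPM in SL203086 and 38.9 CPM in SL203087, and 24.4, 23.2 and 34.8 CPM in mutant replicates 1, 2 and 3. SL203087 and mutant replicate 3 were thus high and the other 4 libraries close together. The log2 fold change was −0.17 (standard error 0.18, 95% interval −0.57 to 0.23, adjusted p = 0.682, edgeR), and it was 0.024 without SL203087 and 0.21 with the mesenchymal covariate. These were also the libraries with the highest myocardial sums of their groups, 41713 and 27406 CPM. The part of that in the *Dusp6* values was not tested. In a fit with the myocardial mean as a covariate, the log2 fold change was 0.26 (adjusted p = 0.838, edgeR).

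*Etv4* (ENSMUSG00000017724, chr11:101769742-101785371), an ETS factor of the PEA3 group induced by FGF, was higher in each mutant library than in any wildtype one. The wildtype libraries read 12.0, 13.4 and 12.1 CPM and the mutant replicates 15.2, 15.5 and 19.3 CPM. The log2 fold change was 0.42 (standard error 0.13, 95% interval 0.13 to 0.70), with an adjusted p of 0.211 by edgeR and of 0.0891 by DESeq2, so it was not called by either. Unlike the receptors, *Etv4* did not separate wildtype replicate 1 from the other wildtype libraries. The fitted value was 0.39 without that library, 0.48 without SL203086 and SL203087, and 0.50 with the mesenchymal covariate. It was above 0 in 19 of 19 alternative fits, which ranged from 0.30 to 0.53, and was called in 0 of them.

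*Etv5* (ENSMUSG00000013089, chr16:22381309-22439719), its close relative, was at 25.2, 20 and 22.4 CPM in wildtype and at 24.1, 26.7 and 33.0 CPM in mutant. Mutant replicate 1 fell between the wildtype libraries and mutant replicate 3 was the highest, as it was for *Etv4*. The log2 fold change was 0.31 (standard error 0.14, 95% interval 0.0097 to 0.61, adjusted p = 0.299, edgeR). It was 0.17 without mutant replicate 3 and 0.15 without SL203086 and SL203087. *Etv4* and *Etv5* were each the nearest of the 10 genes to the other, at a root mean square difference of 0.16, and *Spry1* and *Spry2* likewise at 0.11.

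**Figure D3:**
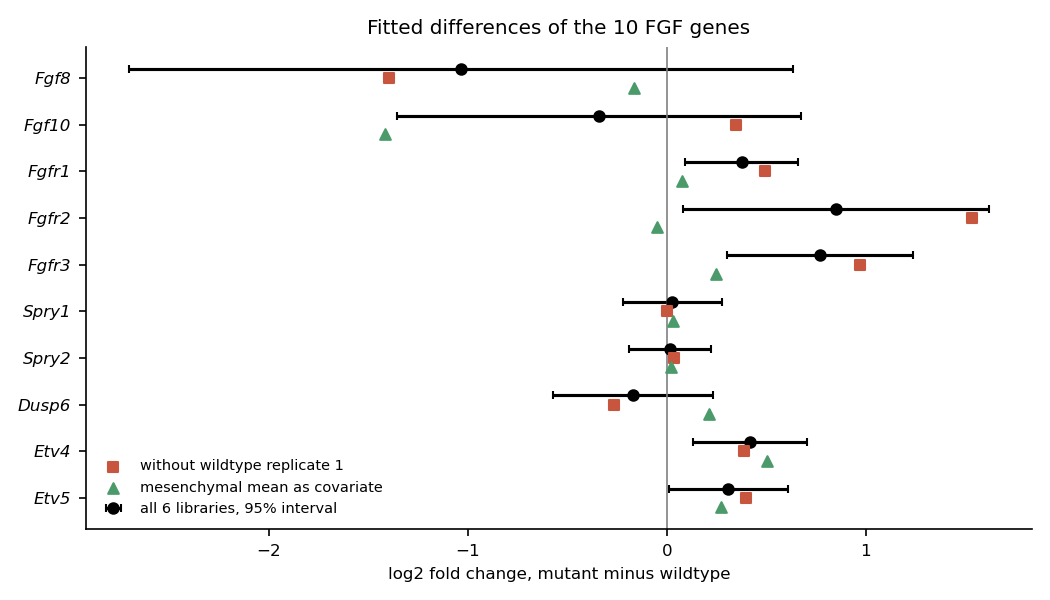
Fitted log2 fold change, mutant minus wildtype, of the 10 genes from all 6 libraries (black circles with 95% intervals), without wildtype replicate 1 (red squares) and with the mesenchymal mean as a covariate (green triangles). The values of *Fgf10* (0.35 and −1.41 in the last 2 fits), *Fgfr2* (1.53 and −0.05) and *Fgf8* (−1.40 and −0.17) move most between the fits, and those of *Spry1*, *Spry2* and *Etv4* stay close together.

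On the length-scaled scale, CPM per kb of exon, the order of mean levels over the 6 libraries was *Spry2* (16.9), *Dusp6* (9.32), *Fgfr1* (8.69), *Fgfr2* (7.52), *Etv5* (6.15), *Spry1* (5.01), *Etv4* (4.70), *Fgfr3* (2.68), *Fgf10* (0.333) and *Fgf8* (0.140). The lowest library of *Spry2*, at 15.9, lay above the highest of *Dusp6*, at 12.4, and the lowest of *Fgfr3*, at 1.45, above the highest of *Fgf10*, at 0.650. All other neighbours in that order overlapped in range. Of the receptors with a kinase, *Fgfr2* had the highest level in wildtype replicate 1 and mutant replicate 1, and *Fgfr1* in the other 4 libraries.

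**Figure D4:**
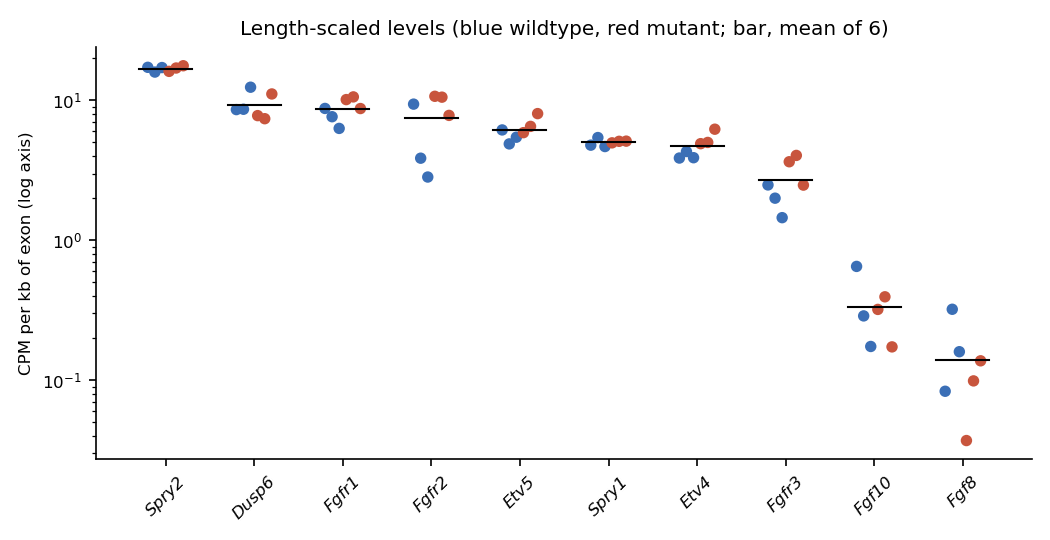
CPM per kb of exon (log axis) of the 10 genes in order of their mean, with a point for each library (wildtype blue, mutant red) and a bar at the mean of the 6. The ligands lie below 0.7 and *Fgfr3* between 1.45 and 4.04, and the other genes reach from 2.83 to 17.7.

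The rest of the pathway was followed in 60 further tested genes from 5 lists. None was called by edgeR (0.0213% of all genes), and 13 had an unadjusted p under 0.05 (16.1% of all genes). DESeq2 called 1 (2.66% of all genes), and limma-voom called 0 (0.0178% of all genes). The groups did not overlap in 9 of the 60, beside 19.6% of all genes. In 41 the fitted difference was above 0 and in 19 below, with a median log2 fold change of 0.12. Without wildtype replicate 1, edgeR called 7 of them, 6 higher and 1 lower (9.45% of all genes).

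The other feedback and response genes had fitted values above 0 in 12 of 14, with a median of 0.17. The largest were *Fos*, an immediate early gene induced by ERK, at 2.72, 2.38 and 2.56 CPM in wildtype and 4.57, 4.06 and 3.66 CPM in mutant (log2 fold change 0.68, adjusted p = 0.194, edgeR), and *Spred3*, a Sprouty-related inhibitor, at 7.22, 6.5 and 6.53 CPM against 10.1, 11.6 and 8.57 CPM (0.58, adjusted p = 0.194). Neither overlapped between the groups, and *Spred3* was the pathway gene that DESeq2 called (adjusted p = 0.0368). At the other end stood the phosphatase *Dusp5*, with a log2 fold change of −0.14, and the cell cycle gene *Ccnd1*, with −0.059.

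The 18 adaptors and kinases that link the receptors to ERK were balanced, 9 with a fitted value above 0 and 9 below, with a median of −0.0026 and values from −0.23 to 0.63. *Frs3*, an adaptor that docks on the receptors, was at 3.19, 3.69 and 3.61 CPM in wildtype and 5.15, 6.08 and 4.99 CPM in mutant (0.63, adjusted p = 0.194, edgeR), and the RAF kinase gene *Araf* had a log2 fold change of 0.25. *Grb2*, the adaptor that recruits the RAS activator SOS, was at 56.1, 59.7 and 65.6 CPM in wildtype and 51.9, 48.6 and 54.4 CPM in mutant, again without overlap (−0.23, adjusted p = 0.292), and *Hras* stood at −0.19.

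The remaining secreted ligands were mostly scarce, with 5 of the 14 tested averaging 1 CPM or more, and their median log2 fold change was 0.074. Among these 5, *Fgf2* (0.38, adjusted p = 0.304, edgeR) and *Fgf5* (0.26, adjusted p = 0.785) had the highest values, and *Fgf9* (−0.40, adjusted p = 0.52) and *Fgf1* (−0.38, adjusted p = 0.321) the lowest. The FGF homologous factors are not secreted and bind sodium channels inside the cell. Of the 4 tested, 3 had a fitted value above 0 and 1 below, with a median of 0.44, and 2 averaged 1 CPM or more. *Fgf13* was at 27.0, 24.7 and 33.8 CPM in wildtype and 16.2, 14.8 and 26.4 CPM in mutant (−0.57, adjusted p = 0.238), with the highest library of each group again SL203087 and mutant replicate 3, and *Fgf11* had a log2 fold change of 0.26. Of the receptors and co-receptors, 9 of 10 had a fitted value above 0, with a median of 0.18, and of those that averaged 1 CPM or more *Fgfr4* and *Fgfrl1* had the highest values.

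**Figure D5:**
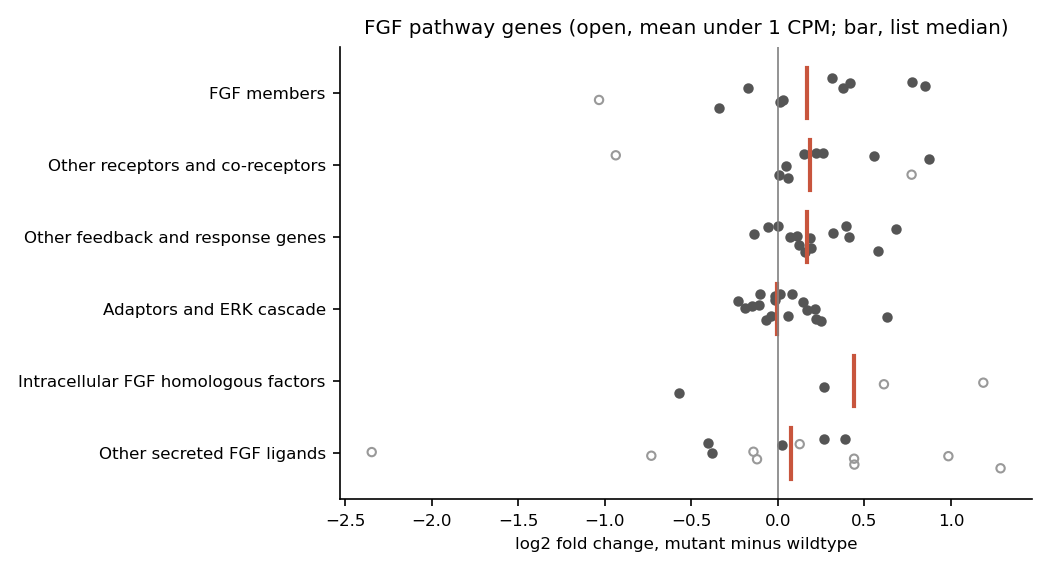
Fitted log2 fold change, mutant minus wildtype, of each tested gene of the 10 and of the 5 further lists, with open points for means under 1 CPM and a red bar at the median of the list. The kinase cascade is centred on 0 with values from −0.23 to 0.63, and the widest scatter is among scarce ligands.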

How the data were processed

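Total RNA of E13.5 OFTs, 3 OFTs a library and 18 in all, was ribodepleted and sequenced with a stranded kit. Per the study's methods and the submitters' processing notes, the authors filtered and trimmed paired-end reads, aligned them to mm10 with TopHat2 2.1.0, and counted exon reads per gene with GenomicAlignments. The deposited values are raw counts. Their annotation release and their strand and overlap settings are not given in the sources used here, so reads shared with genes that overlap *Fgf10*, *Fgfr1*, *Fgfr2*, *Fgfr3* or *Spry1* are uncertain. The file lists genes with a sum of 5 or more over the 6 libraries, and *Fgf4*, *Fgf20* and *Spry3* were not analysed here.

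Symbols, positions and exon lengths came from GENCODE M21 (the mm10 assembly), which held 28723 of the 28777 identifiers. Genes with 5 or fewer reads in all were dropped. The 2 labels were compared over all 28157 remaining genes with edgeR 4.0.16 (R 4.3.3), TMM scaling, a quasi-likelihood test with group as the only term, and Benjamini-Hochberg adjustment, with calls at an adjusted p of at most 0.05. Every p given with a fitted difference comes from that fit unless DESeq2 1.42.0 or limma 3.58.1 is named. Intervals use 10.7 degrees of freedom. DESeq2, which the authors used at version 1.26.0, and other settings were alternatives. Scripts were tested on simulated data. The p-values measure the spread between pools of embryos. Exact permutation of 3 against 3 libraries cannot go below p = 0.1. Intervals of low counts cover the fitted spread, and *Fgf8* rests on 2 to 18 counts a library.

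The genes and lists were chosen with earlier results of these data known. All 10 genes are given in every library. Named from each list were called genes and, of those that averaged 1 CPM or more, the 2 with the largest increase and the 2 with the largest decrease. Likeness is the root mean square difference of log2 CPM (prior count 2), centred per gene, for the nearest of the 10 and, for the 2 genes with the widest range, for the 3 nearest of all genes that reached this average; for *Fgf8* the latter are not reported here. Marker lists for the endothelium (summed 1042 to 1364 CPM over the libraries), epicardium (172 to 329 CPM), neurons (12.2 to 35.3 CPM) and macrophages (104 to 158 CPM) were read as well.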

Additional observations from a re-analysis of the deposited data

How the results depend on the processing

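Over the alternative fits, *Fgfr1*, *Fgfr3*, *Etv4* and *Etv5* kept a fitted value above 0 in 19 of 19. Of the 10 genes, 0 were called in the fit reported, 1 by DESeq2, 3 with a replicate block, 2 with a replicate block and a correction for GC content and length, and 0 to 3 with 1 library left out. Of the other pathway genes the corresponding counts were 0, 1, 6, 4 and 0 to 7, and of all genes 6, 749, 1577, 2262 and 1 to 2593. The upper ends come from leaving out wildtype replicate 1. Over all genes 14 were called with the mesenchymal covariate, 83 with a replicate block on the numbers of the sample descriptions, and 2 without SL203086 and SL203087. These 3 alternatives were chosen after seeing the data. Signs turned for *Fgf8* (0.12 without SL203086 and SL203087), for *Fgf10* (−0.67 to 0.35 with 1 library left out, the upper end without wildtype replicate 1), and for *Fgfr2* (−0.049 with the mesenchymal covariate). *Spry1* turned with the GC and length correction (−0.039), with it and the replicate block (−0.038), with the myocardial covariate (−0.00020) and with 1 library left out (−0.012 to 0.096). *Spry2* turned without SL203086 and SL203087 (−0.020) and with 1 library left out (−0.022 to 0.049, with −0.018 without mutant replicate 3). *Dusp6* turned with the myocardial (0.26) and mesenchymal (0.21) covariates, without SL203086 and SL203087 (0.033) and with 1 library left out (−0.38 to 0.024). The cause was not tested. Scaling by library size alone moved the median over all genes from 0.011 to 0.11, and *Spry1* to 0.13 and *Spry2* to 0.12 with it.

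The replicate numbers share no stated litter or batch. Deviations from the group means correlated at 0.096, 0.16 and 0.42 between libraries of the same title number. Between libraries of the same description number they correlated at 0.096, −0.12 and −0.44. Wildtype replicate 1 correlated best with mutant replicate 2 (0.28), so the pairing by number is not established. With the replicate block the log2 fold changes were 0.38 for *Fgfr1*, 1.03 for *Fgfr2* and 0.78 for *Fgfr3* (adjusted p = 0.0391, 0.00153 and 0.00107, edgeR). With the block on the description numbers, which the labels allow equally, they were 0.38, 1.03 and 0.77 (adjusted p = 0.24, 0.0614 and 0.0905), and 0 of the 10 genes were called. *Fgf8* had no more than 18 counts in a library, and DESeq2 gave it no adjusted p.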
